A study of Mus musculus with 36 samples.

Results

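The 10 genes described here belong to the integrated stress response: the transcription factors Atf4, Atf5 and Ddit3, the feedback inhibitors Trib3 and Ppp1r15a, the amino acid synthesis genes Asns, Psat1 and Phgdh, and the effectors Chac1 and Sesn2. They were taken by symbol, as every probe that the array files name for one of them, which gave 16 probes. All 10 genes were among the 24097 of 37061 genes tested; a gene was tested where some group had 5 or 6 arrays with its probe well above background. Of the 16 probes 15 passed that filter, and the 1 that failed was the third probe of Psat1, well above background on 0 of 36 arrays.

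Liver RNA of 36 male C57Bl/6J mice was hybridised to 36 single-colour Agilent arrays, in 6 groups of 6 that crossed genotype with condition. AAKO mice lack adipose triglyceride lipase (ATGL), the enzyme that starts the release of fatty acids from stored fat, in white adipose tissue, and CTRL mice are the other genotype; the labels name neither a Cre driver, the alleles of CTRL mice nor an age. Fed mice ate freely and fasted mice went 24 h without food. CL316243 mice were fed and had a single gavage of this agonist of the β3 adrenergic receptor, 3 mg/kg in 0.5% carboxymethyl cellulose, at Zeitgeber time 10. Livers of all groups were taken at Zeitgeber time 16, after lights off. Per the labels the fed groups were experiment 2 and the fasted and CL316243 groups experiment 1, and a gavage is described for CL316243 only. Condition, experiment and gavage therefore cannot be told apart in comparisons with fed mice, while an experiment effect shared by both genotypes cancels in the interaction contrasts. Because the deletion is in fat and the RNA is from liver, no probe checks the genotype here.

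In the integrated stress response, kinases that sense amino acid shortage, misfolded protein in the endoplasmic reticulum, viral RNA or lack of heme phosphorylate the initiation factor eIF2. General protein synthesis falls, while a few mRNAs with upstream open reading frames, among them those of ATF4 and ATF5, are translated better, a step that RNA arrays do not measure. ATF4 binds composite C/EBP-ATF sites near genes of amino acid synthesis, uptake and tRNA charging, and in liver it also acts on the hormone gene Fgf21.

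Promoter windows from 250 bases before to 50 after each RefSeq start (GRCm38.p6) were matched by symbol for all 10 genes, with 12 windows in all because 2 genes have a pair. The spellings searched were TGATGNAA, a form of the C/EBP-ATF composite site, on both strands, and TGACGTCA, the cyclic AMP response element, which reads alike on both. The first was present in 3.97% of 32851 windows of the genome and in those of Chac1, Asns and Trib3. The second was present in 1.79% and in that of Ppp1r15a. The matched stretches are shown 5′ to 3′ on the gene's strand, with the match in capitals, because the composite site is the sequence by which ATF4 is known; a match describes the letters and shows no binding. In Chac1 and Trib3 the match lies on the opposite strand.
Chac1, chr2:119351023-119351082, plus strand: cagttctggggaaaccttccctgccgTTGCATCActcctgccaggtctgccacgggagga
Asns, chr6:7693210-7693269, minus strand: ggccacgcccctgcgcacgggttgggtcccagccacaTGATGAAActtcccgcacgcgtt
Trib3, chr2:152344028-152344057, minus strand: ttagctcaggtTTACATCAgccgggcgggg
Ppp1r15a, chr7:45526269-45526328, minus strand: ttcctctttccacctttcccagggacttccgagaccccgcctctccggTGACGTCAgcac

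**Figure D1:**
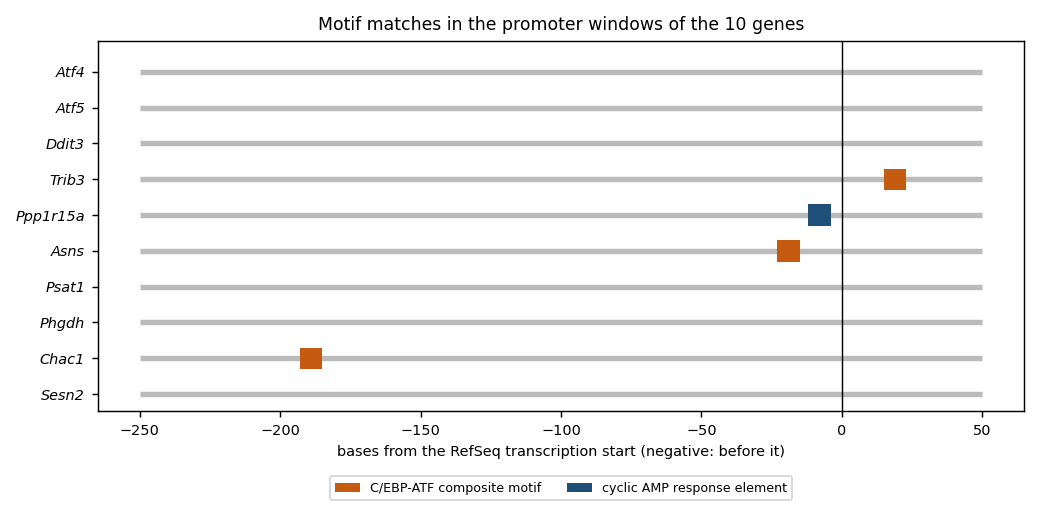
Positions of the matches (coloured) within the promoter windows (grey), in bases from the RefSeq start, negative before it. The composite site lies at -193 to -186 in Chac1, at -23 to -16 in Asns and at 15 to 22, after the start, in Trib3, and the cyclic AMP response element at -12 to -5 in Ppp1r15a; the windows of the other 6 genes hold neither spelling.

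Values are log2 intensity minus that of the array's 75th percentile, so that 0 is the brightness of that percentile, and levels are not compared between probes. Between 33130 and 37200 of 56605 probes per array were well above background. CTRL fasted replicate 2 stood apart from its group on the first principal component, at 80.9 against 16.7 to 28.9 for the other 5 arrays and 102.3 to 110.3 for AAKO fasted, and results that rest on it are given with and without it. Hepatocyte markers were high throughout, with a summed level of 6 markers between 11.5 and 11.8 on every array; in fasted livers all 6 were called between the genotypes, with 3 higher in AAKO (Tat, Hnf4a and Cps1) and 3 lower (Ttr, Apoa1 and Alb). Of 6 neutrophil markers, 4 (S100a8, S100a9, Retnlg and Ngp) were higher in AAKO fasted than in CTRL fasted livers, by 2.16 to 3.86, while Ly6g and Camp were not called; the summed level ran from 3.24 to 6.97 and from 0.57 to 6.32. Also higher in AAKO fasted livers were 3 of 6 endothelial markers (Lyve1, Cdh5 and Stab2) and 2 of 6 stellate cell markers (Reln and Dcn), while 2 of 5 cholangiocyte markers were lower. Of all genes 49.2% were called in this contrast, 21.9% higher and 27.3% lower. The endothelial share called, 50%, was near that of all genes, and the stellate share, 33.3%, was below it. The summed stellate level ran from 6.79 to 7.21 in AAKO fasted and from 6.41 to 6.73 in CTRL fasted livers, with no overlap. The summed endothelial level ran from 5.63 to 5.98 and from 4.84 to 5.95. After CL316243 3 of 6 hepatocyte markers were higher and 0 lower in AAKO (median of the 6 0.25), where 24.6% of all genes were called. In the same contrast 0 of 6 neutrophil markers were called, 2 of 6 endothelial markers were higher and 1 of 5 cholangiocyte markers was lower. Between the genotypes 0 of 6 Kupffer cell markers were called in any condition. The part of these lists in the genotype differences below was not tested. In whole tissue, fewer cells of a type and less RNA per cell cannot be told apart.

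**Figure D2:**
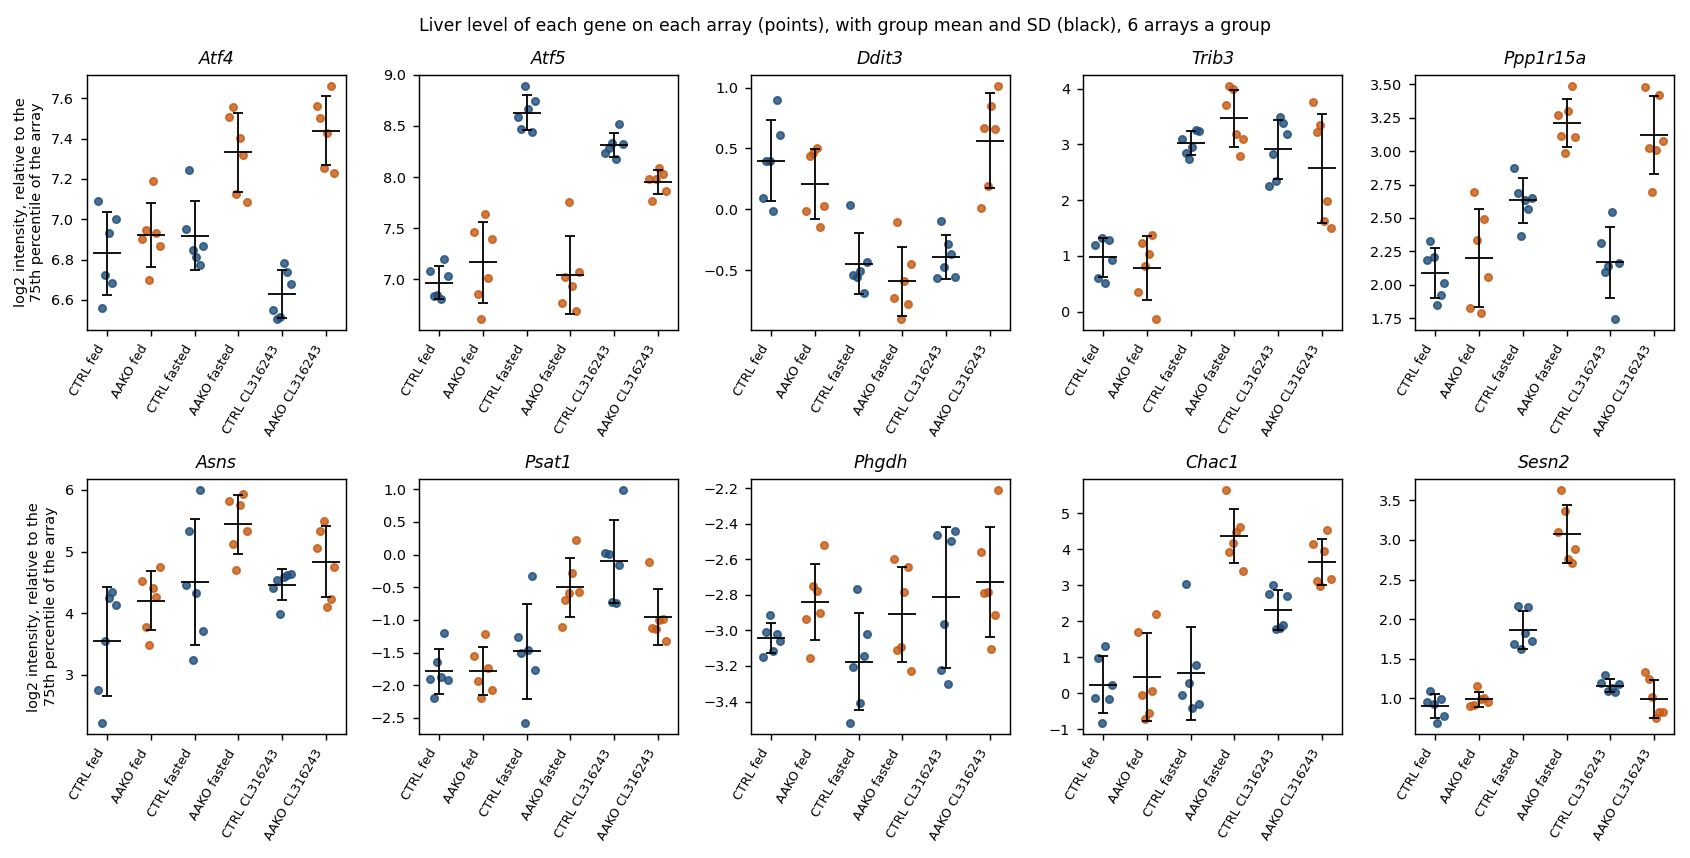
Each panel plots one gene, with log2 intensity relative to the array's 75th percentile on the vertical axis and the 6 groups along the horizontal axis; each point is 1 array, and the group mean with its SD is in black. Chac1 and Sesn2 have their highest mean in AAKO fasted livers, where the Chac1 range overlaps that of AAKO CL316243 livers. Atf5 is highest in CTRL fasted livers, followed by CTRL CL316243 and AAKO CL316243 livers. Ddit3 is low in both fasted groups and in CTRL CL316243 livers.

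The first comparison asked how the genotypes differed in each condition. In fed livers 0 of the 10 genes were called by limma at an adjusted p under 0.05, where 0.0788% of all genes tested were called, and 0 had an unadjusted p under 0.05; the differences ran from -0.20 for Trib3 to 0.66 for Asns, the latter with a 95% interval of -0.09 to 1.41. In fasted livers 7 of the 10 were called, where 49.2% of all genes were: Chac1, Sesn2, Psat1, Asns, Ppp1r15a and Atf4 were higher in AAKO and Atf5 was lower. After CL316243 5 were called, where 24.6% of all genes were: Chac1, Ppp1r15a, Ddit3 and Atf4 were higher in AAKO and Psat1 was lower. Leaving out any 1 of the 12 CL316243 arrays ended the call of Chac1, of Psat1 or of both, so that the count was 3 to 4, and without a filter on dim probes it was 3. The ranges of the 6 arrays did not overlap for 4 genes when fasted and for 4 genes after CL316243. Such ranges were not counted over all genes, so these counts show nothing particular to the 10. The median log2 fold change of the 10 genes was 0.10 in fed, 0.51 in fasted and 0.25 in CL316243 livers, and that of all genes was -0.03 in fasted and 0.03 in CL316243 livers. Within wash batch 1 alone 4 of the 10 were called when fasted and 3 after CL316243, and within wash batch 2 alone 2 were called after CL316243. A wash batch alone holds 2 to 4 arrays of a group, and the share of all genes called within it is not given here or below. The part of the smaller number of arrays in these lower counts was not tested.

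**Figure D3:**
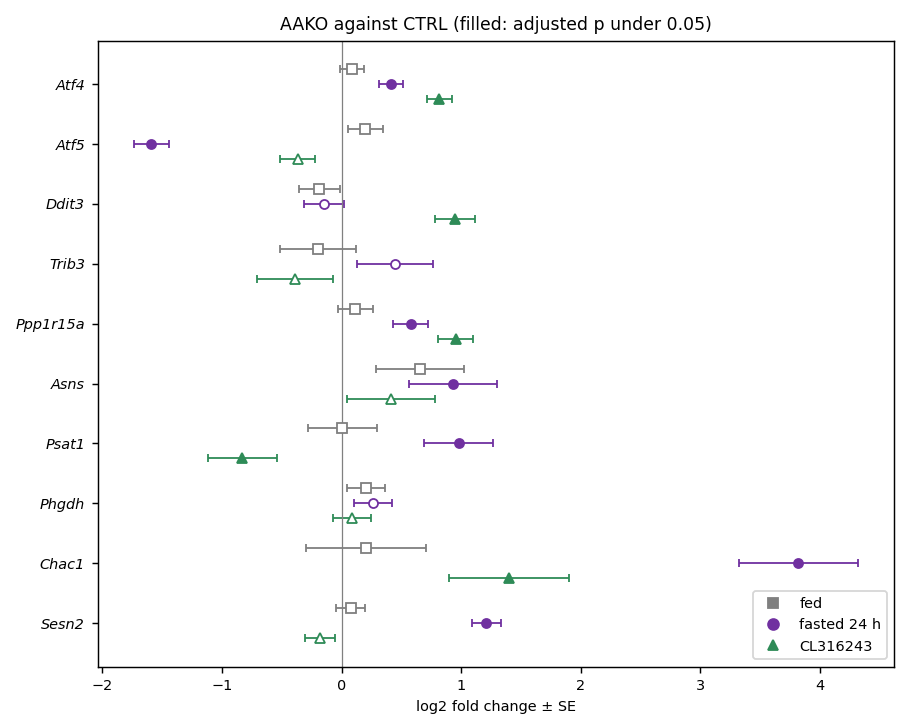
The log2 fold change of AAKO against CTRL (horizontal axis) with its standard error, for each gene (vertical axis) in fed, fasted and CL316243 livers; filled symbols have an adjusted p under 0.05. Chac1 in fasted livers lies farthest to the right at 3.82 and Atf5 in fasted livers farthest to the left at -1.59, and no fed symbol is filled.

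Atf4 encodes the transcription factor that carries the response, and its RNA was higher in AAKO livers in both treated conditions. Its brighter probe lies at chr15:80087902-80087961 (mm9, plus strand). In CTRL livers its level ran from 6.56 to 7.09 when fed (median 6.83), from 6.77 to 7.25 when fasted (median 6.86) and from 6.51 to 6.78 after CL316243 (median 6.62). In AAKO livers it ran from 6.70 to 7.19 when fed (median 6.92), from 7.08 to 7.56 when fasted (median 7.36) and from 7.23 to 7.66 after CL316243 (median 7.47). Every AAKO CL316243 array was thus above every CTRL CL316243 array, while the fasted ranges overlapped through CTRL fasted replicate 2. The difference after CL316243 was 0.82 ± 0.10 (SE, 6 against 6 arrays, limma adjusted p = 4.46e-07), and 0.81 and 0.76 within the wash batches. In fasted livers it was 0.41 ± 0.10 (adjusted p = 0.000992), 0.43 and 0.40 within the wash batches, and 0.48 without CTRL fasted replicate 2. The second Atf4 probe gave 0.85 after CL316243 and 0.52 when fasted.

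Atf5, a related factor also favoured in translation under stress, was lower in fasted AAKO livers. Its brighter probe lies at chr7:52067627-52067686 (mm9, minus strand). The CTRL arrays lay between 6.80 and 7.20 when fed (median 6.94), between 8.44 and 8.89 when fasted (median 8.62) and between 8.18 and 8.52 after CL316243 (median 8.31). The AAKO arrays lay between 6.62 and 7.64 when fed (median 7.21), between 6.69 and 7.75 when fasted (median 6.98) and between 7.77 and 8.09 after CL316243 (median 7.98). No AAKO array reached the CTRL range in either treated condition. In fasted livers the genotypes differed by -1.59 ± 0.15, 3.01-fold lower in AAKO (adjusted p = 1.84e-10), and by -1.41 and -1.77 within the wash batches. After CL316243 the difference of -0.36 ± 0.15 missed the threshold (adjusted p = 0.0674), although the ranges did not overlap. The second Atf5 probe gave -1.71 when fasted and -0.34 after CL316243.

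Ddit3 encodes CHOP, a factor linked to cell death under lasting stress, and it differed by genotype after CL316243. Its brighter probe, at chr10:126731579-126731638 (mm9, plus strand), represents an Ensembl transcript. Fed arrays lay between -0.01 and 0.90 in CTRL (median 0.40) and between -0.14 and 0.50 in AAKO (median 0.23). Fasted arrays lay between -0.69 and 0.04 in CTRL (median -0.52) and between -0.90 and -0.10 in AAKO (median -0.66). Both fasted groups were thus low, with overlapping ranges. After CL316243 CTRL arrays lay between -0.56 and -0.09 (median -0.42) and AAKO arrays between 0.01 and 1.01 (median 0.67), with no overlap. That difference was 0.95 ± 0.17, 1.93-fold higher in AAKO (adjusted p = 8.62e-05), and 0.83 and 1.05 within the wash batches. In fasted livers it was -0.14 ± 0.17 (adjusted p = 0.507), with a 95% interval of -0.49 to 0.20. The other probe, for the RefSeq transcript, gave 1.14 after CL316243 and -0.01 when fasted.

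Among the feedback inhibitors, Trib3 encodes a pseudokinase that binds ATF4 and the insulin signalling kinase Akt, and it was high in all 4 fasted and CL316243 groups. Its probe is at chr2:152163161-152163220 (mm9, minus strand). Fed arrays ran from 0.52 to 1.33 in CTRL (median 1.06) and from -0.12 to 1.37 in AAKO (median 0.93). Fasted arrays ran from 2.73 to 3.25 in CTRL (median 3.02) and from 2.78 to 4.04 in AAKO (median 3.44). After CL316243 CTRL arrays ran from 2.26 to 3.49 (median 3.00) and AAKO arrays from 1.505 to 3.76 (median 2.60). The AAKO CL316243 arrays lay on either side of a gap, with replicates 1, 2 and 3 at 3.76, 3.21 and 3.35 and replicates 4, 5 and 6 at 1.62, 1.98 and 1.505, and each wash batch holds arrays from both sides. On the same arrays Sesn2 was at 1.33, 1.24 and 1.02 in replicates 1, 2 and 3 and at 0.75, 0.83 and 0.83 in replicates 4, 5 and 6. Trib3 was not called between the genotypes, with 0.44 ± 0.32 in fasted (adjusted p = 0.257, 95% interval -0.20 to 1.09) and -0.39 ± 0.32 in CL316243 livers (adjusted p = 0.41, 95% interval -1.04 to 0.26).

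Ppp1r15a encodes GADD34, the stress-induced subunit that directs a phosphatase to eIF2 and so ends the response, and it was higher in AAKO livers in both treated conditions. Its probe is at chr7:52778320-52778379 (mm9, minus strand). In CTRL livers its level ran from 1.85 to 2.33 when fed (median 2.10), from 2.37 to 2.88 when fasted (median 2.64) and from 1.75 to 2.55 after CL316243 (median 2.15). In AAKO livers it ran from 1.79 to 2.70 when fed (median 2.20), from 2.98 to 3.49 when fasted (median 3.19) and from 2.69 to 3.48 after CL316243 (median 3.05). The genotypes did not overlap in either treated condition. The differences were 0.58 ± 0.15 in fasted (adjusted p = 0.00135) and 0.95 ± 0.15 in CL316243 livers (adjusted p = 1.14e-05). Within the wash batches they were 0.54, not called, and 0.62 when fasted, and 1.12 and 0.64, the latter not called, after CL316243.

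Asns encodes asparagine synthetase, a classical gene of the amino acid response, and its arrays were widely spread. Its brighter probe is at chr6:7625171-7625228 (mm9, minus strand). CTRL arrays ran from 2.22 to 4.35 when fed (median 3.85), from 3.23 to 5.99 when fasted (median 4.40) and from 3.99 to 4.64 after CL316243 (median 4.56). AAKO arrays ran from 3.48 to 4.75 when fed (median 4.34), from 4.71 to 5.93 when fasted (median 5.54) and from 4.10 to 5.50 after CL316243 (median 4.91). The genotypes overlapped in every condition. In fasted livers Asns was higher in AAKO by 0.93 ± 0.37 (adjusted p = 0.0347). That call ended when any 1 of 8 arrays was left out, namely CTRL fasted replicates 1, 3, 4 and 6 and AAKO fasted replicates 1, 4, 5 and 6 (adjusted p up to 0.122), and within both wash batches (0.74 and 1.13). After CL316243 the difference was 0.41 ± 0.37 (adjusted p = 0.457). The second Asns probe, well above background on 36 of 36 arrays, was called in fasted livers (1.005, limma adjusted p = 0.0166). After CL316243 that probe was not called (0.49, adjusted p = 0.333).

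Psat1 and Phgdh encode phosphoserine aminotransferase and phosphoglycerate dehydrogenase, which catalyse successive steps of serine synthesis. Psat1 was higher in AAKO livers when fasted and lower after CL316243. Its brightest probe is at chr19:15979622-15979681 (mm9, minus strand). CTRL arrays ran from -2.19 to -1.19 when fed (median -1.89), from -2.58 to -0.32 when fasted (median -1.49) and from -0.75 to 0.98 after CL316243 (median -0.08). AAKO arrays ran from -2.19 to -1.21 when fed (median -1.83), from -1.105 to 0.23 when fasted (median -0.58) and from -1.33 to -0.12 after CL316243 (median -1.07). The genotypes overlapped in every condition. The fasted difference was 0.98 ± 0.29 (adjusted p = 0.00515), with 0.94 and 1.02 within the wash batches, where neither was called, and 0.58 as the mean over its probes. Here and below, that mean includes the third Psat1 probe, which was well above background on 0 of 36 arrays. After CL316243 the genotype difference was -0.83 ± 0.29 (adjusted p = 0.0336), with -0.59 and -1.17 within the wash batches, again not called. The call after CL316243 ended when any 1 of 9 of the 12 arrays was left out, all but CTRL replicates 3 and 4 and AAKO replicate 1 (adjusted p up to 0.11). On the dimmer second probe, well above background on 22 of 36 arrays, neither the fasted difference of 0.86 (adjusted p = 0.0899) nor that of -0.80 after CL316243 (adjusted p = 0.171) was called.

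Phgdh was called in none of the 12 contrasts over all arrays. Its probe, at chr3:98117098-98117157 (mm9, minus strand), gave arrays between -3.52 and -2.21, with group medians from -3.17 in CTRL fasted to -2.73 in CTRL CL316243 livers, and all neighbouring groups overlapped. In fasted livers the genotypes differed by 0.27 ± 0.16 (adjusted p = 0.168), with -0.17 within wash batch 1 and 0.70 within wash batch 2, where it was called (adjusted p = 0.0076). The contrast with the lowest adjusted p over all arrays was fasted against CL316243 in CTRL livers, -0.36 ± 0.16 (adjusted p = 0.072), with 0.033 within wash batch 1 and -0.76 within wash batch 2, where it was called (adjusted p = 0.00591).

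Chac1 encodes an enzyme that degrades glutathione and is a highly inducible target of ATF4, and it had the largest genotype difference of the 10 genes. Its probe is at chr2:119179990-119180049 (mm9, plus strand). Fed arrays ran from -0.82 to 1.33 in CTRL (median 0.06) and from -0.71 to 2.21 in AAKO (median 0.01). Fasted arrays ran from -0.41 to 3.04 in CTRL (median 0.12) and from 3.41 to 5.64 in AAKO (median 4.33). In fasted livers no CTRL array reached the AAKO range, and the nearest was replicate 2, with the next at 0.79. After CL316243 arrays ran from 1.78 to 3.00 in CTRL (median 2.30) and from 2.98 to 4.53 in AAKO (median 3.56). The fasted difference was 3.82 ± 0.50, 14.1-fold higher in AAKO (adjusted p = 1.55e-07), 4.29 without CTRL fasted replicate 2, and 3.58 and 4.06 within the wash batches. After CL316243 it was 1.40 ± 0.50, 2.64-fold higher in AAKO (adjusted p = 0.039). That call ended when any 1 of CTRL replicates 3, 4, 5 and 6 or AAKO replicates 1, 4 and 5 was left out (adjusted p up to 0.104), and within both wash batches (1.51 and 1.05).

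Sesn2 encodes sestrin 2, a leucine sensor that restrains the growth kinase mTORC1, and it differed by genotype when fasted. Its probe is at chr4:132048858-132048917 (mm9, minus strand). CTRL arrays ran from 0.69 to 1.1 when fed (median 0.94), from 1.63 to 2.16 when fasted (median 1.78) and from 1.08 to 1.29 after CL316243 (median 1.15). AAKO arrays ran from 0.91 to 1.16 when fed (median 0.98), from 2.71 to 3.62 when fasted (median 2.99) and from 0.75 to 1.33 after CL316243 (median 0.93). Both fasted groups lay apart from all other groups and from each other. Fasted AAKO exceeded fasted CTRL livers by 1.21 ± 0.12, 2.31-fold (adjusted p = 1.08e-09), by 1.28 without CTRL fasted replicate 2, and by 1.46 and 0.96 within the wash batches. After CL316243 the difference was -0.18 ± 0.12 (adjusted p = 0.301, 95% interval -0.43 to 0.07).

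The second comparison asked how fasting and CL316243 differed from feeding in each genotype; both comparisons share the fed group of that genotype. In CTRL livers 6 of the 10 genes differed between fasted and fed mice, where 43.8% of all genes did. Trib3 (2.04 ± 0.32), Atf5 (1.66 ± 0.15), Asns (0.97 ± 0.37), Sesn2 (0.95 ± 0.12) and Ppp1r15a (0.55 ± 0.15) were higher in fasted livers, and Ddit3 (-0.84 ± 0.17) was lower. Asns lost its call without any 1 of CTRL fed replicates 1 and 2 and CTRL fasted replicates 2 and 5 (adjusted p up to 0.133), with 0.83 without CTRL fasted replicate 2 and 0.63 without CTRL fasted replicate 5, and it was called within neither wash batch (0.97 and 0.96). Ppp1r15a was not called within wash batch 1 either (0.40, adjusted p = 0.192). The second Asns probe was called over all arrays (0.97, limma adjusted p = 0.0234). Psat1 (0.31 ± 0.29), Atf4 (0.09 ± 0.10) and Chac1 (0.32 ± 0.50) were not called, and Chac1 was at -0.15 without CTRL fasted replicate 2. In AAKO livers 8 differed, where 63.6% of all genes did. Chac1 (3.94 ± 0.50), Trib3 (2.68 ± 0.32), Sesn2 (2.08 ± 0.12), Psat1 (1.28 ± 0.29), Asns (1.24 ± 0.37), Ppp1r15a (1.01 ± 0.15) and Atf4 (0.41 ± 0.10) were higher and Ddit3 (-0.81 ± 0.17) was lower. The count was 5 within wash batch 1 alone, without Psat1 (1.09, adjusted p = 0.0505), Asns (1.00, adjusted p = 0.172) and Atf4 (0.32, adjusted p = 0.108). Psat1 was not called on its second probe (0.84, adjusted p = 0.0784), and was at 0.68 as the mean over its probes and at 0.85 with normexp background correction. Atf5 was not called over all arrays, at -0.12 ± 0.15, and at 0.06 after quantile normalization; within wash batch 1 it was at 0.19 and within wash batch 2 it was called lower (-0.44, adjusted p = 0.0151). Against fed livers 1 of 6 Kupffer cell markers was lower in fasted CTRL and 3 of 6 in fasted AAKO livers, 1 endothelial marker was higher and 1 lower in CTRL, and 3 were higher and 2 lower in AAKO. Of the neutrophil markers 0 were called in CTRL and 4 were higher in AAKO; the part of these lists was not tested.

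Between CL316243 and fed mice 5 of the 10 genes differed in CTRL livers, where 23.1% of all genes did. Chac1 (2.08 ± 0.50), Trib3 (1.94 ± 0.32), Psat1 (1.69 ± 0.29) and Atf5 (1.34 ± 0.15) were higher and Ddit3 (-0.79 ± 0.17) was lower. Within each wash batch alone the count was 3: Chac1 was called in neither (1.74, adjusted p = 0.0531, and 2.43, adjusted p = 0.0825), Ddit3 not in wash batch 1 (-0.51, adjusted p = 0.22) and Trib3 not in wash batch 2 (1.46, adjusted p = 0.057). Asns (0.92 ± 0.37, adjusted p = 0.0677), Sesn2 (0.25 ± 0.12, adjusted p = 0.136) and Atf4 (-0.20 ± 0.10, adjusted p = 0.155) missed the threshold, though the second Atf4 probe was called (-0.30, adjusted p = 0.0221). In AAKO livers 6 differed, where 31.4% of all genes did, each of them higher: Chac1 (3.28 ± 0.50), Trib3 (1.74 ± 0.32), Ppp1r15a (0.92 ± 0.15), Psat1 (0.85 ± 0.29), Atf5 (0.78 ± 0.15) and Atf4 (0.53 ± 0.10). Within wash batch 2 alone 2 were called, Atf5 and Trib3, while Chac1 was at 2.175 (adjusted p = 0.139), Ppp1r15a at 0.66 (adjusted p = 0.0566) and Atf4 at 0.44 (adjusted p = 0.0657). Psat1 was called within neither batch (0.82 and 0.78). As the mean over its probes it was at 0.15 (adjusted p = 0.642) in AAKO and 0.93 in CTRL livers, and with normexp background correction at 0.55 in AAKO livers. Over all arrays it lost that call without AAKO fed replicate 3 or AAKO CL316243 replicate 1 (adjusted p up to 0.0737), and its second probe turned the sign (-0.32) and was not called in CTRL livers either (1.01, adjusted p = 0.0789). Ddit3 was at 0.35 ± 0.17 in AAKO livers (adjusted p = 0.123), and its other probe at -0.23. On that other probe Ddit3 was lower by more in CTRL livers, at -2.16 when fasted and -1.87 after CL316243, and at -1.67 in fasted AAKO livers. Against fed livers CL316243 livers had 3 of 6 Kupffer cell markers lower in CTRL (median of the 6 -0.81) and 5 of 6 lower in AAKO (median -1.175), 5 of 6 and 3 of 6 endothelial markers lower (medians -0.77 and -0.46), 3 of 6 stellate cell markers lower in either genotype, and 2 of 3 and 3 of 3 erythroid markers lower. None of these 4 lists had a marker called higher. Of 6 hepatocyte markers 3 were lower and 0 higher in CTRL livers, and 0 were called in AAKO livers. The part of these lists in the differences from fed livers was not tested.

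**Figure D4:**
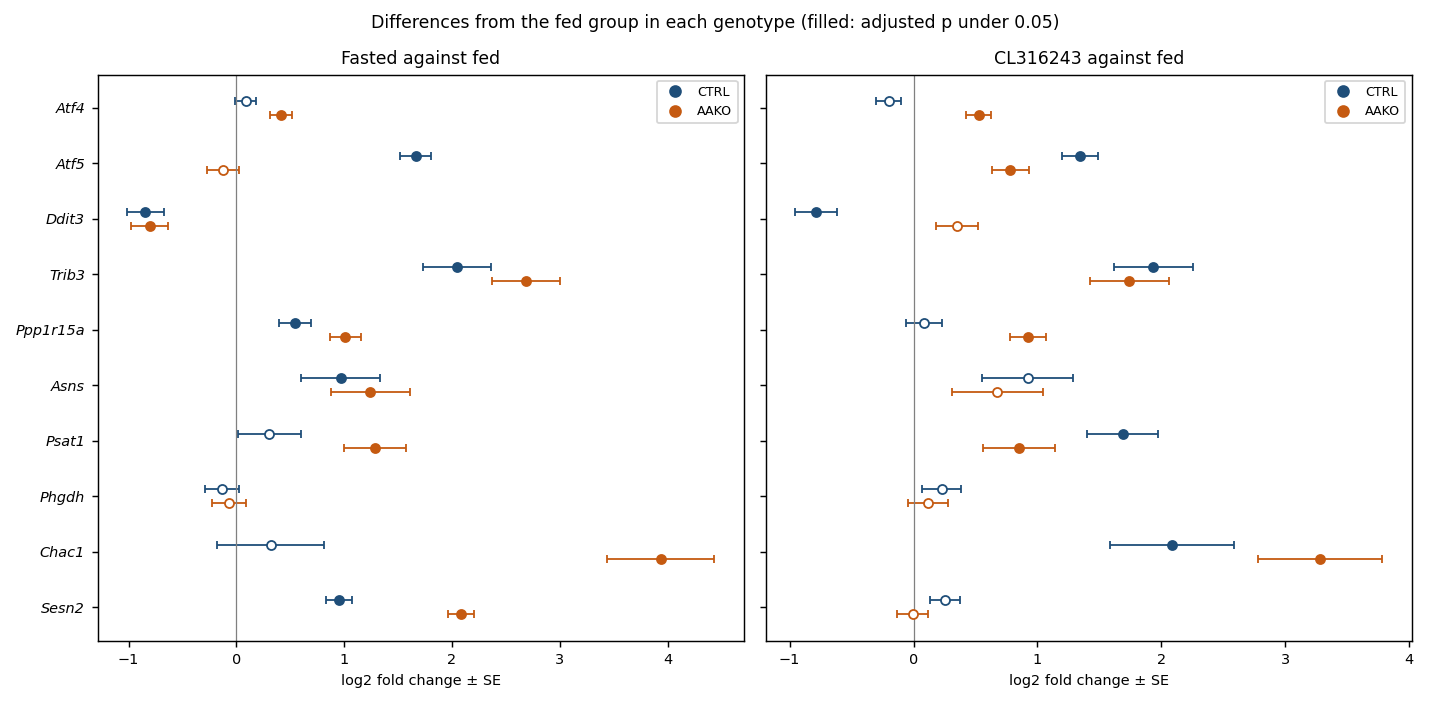
The log2 fold change from the fed group of the same genotype (horizontal axis) with its standard error, for fasting and for CL316243, by gene (vertical axis); filled symbols have an adjusted p under 0.05. For fasting Atf5 is at 1.66 in CTRL and -0.12 in AAKO, and at 0.06 in AAKO after quantile normalization, and Chac1 at 0.32 and 3.94; for CL316243 Ddit3 is at -0.79 in CTRL and 0.35 in AAKO.

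The interaction contrasts test whether these differences were unlike between the genotypes. For fasting 3 of the 10 were called, where 33.6% of all genes were. Chac1 (3.62 ± 0.71, adjusted p = 0.000163) and Sesn2 (1.13 ± 0.17, adjusted p = 5.63e-06) had the more positive difference in AAKO, and Atf5 (-1.79 ± 0.21, adjusted p = 8.61e-08) the more negative one. Within the wash batches Chac1 gave 4.47 and 2.76, the latter not called, Sesn2 1.31 and 0.95, and Atf5 -1.67 and -1.91. Without CTRL fasted replicate 2 Chac1 gave 4.08, Sesn2 1.205 and Atf5 -1.82. Psat1 (0.97 ± 0.41, adjusted p = 0.0632), Atf4 (0.33 ± 0.14, adjusted p = 0.0797) and Ppp1r15a (0.47 ± 0.21, adjusted p = 0.0826) missed the threshold. Atf4 passed it without CTRL fasted replicate 2 (0.39, adjusted p = 0.0273). It also passed without any 1 of CTRL fed replicate 2, AAKO fed replicate 4 and AAKO fasted replicate 6. The second Atf4 probe passed over all arrays (0.42, limma adjusted p = 0.0167), and the second Psat1 probe did not (0.325, adjusted p = 0.722). Without AAKO fed replicate 4 the count was 5. For CL316243 3 were called, where 10.9% of all genes were: Ddit3 (1.13 ± 0.24, adjusted p = 0.00161), Ppp1r15a (0.84 ± 0.21, adjusted p = 0.00674) and Atf4 (0.73 ± 0.14, adjusted p = 0.000785), each more positive in AAKO. Within wash batch 1 alone 0 were called and within wash batch 2 alone 1, Ddit3; the values were 0.82 and 1.43 for Ddit3, 1.04 and 0.49 for Ppp1r15a and 0.61 and 0.78 for Atf4. Chac1 did not pass for CL316243 (1.20 ± 0.71, adjusted p = 0.333).

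Fasting and CL316243 were compared directly within experiment 1, which leaves the fed groups out. In CTRL livers 5 of the 10 were called, where 37.1% of all genes were: Sesn2 (0.70 ± 0.12), Ppp1r15a (0.46 ± 0.15) and Atf4 (0.29 ± 0.10) were higher after fasting, and Chac1 (-1.77 ± 0.50) and Psat1 (-1.38 ± 0.29) were higher after CL316243. Atf4 was not called without CTRL fasted replicate 2 or any 1 of CTRL CL316243 replicates 1, 2 and 3 (adjusted p up to 0.0876), and Psat1 not on its second probe (-0.49, adjusted p = 0.384), with -0.62 as the mean over its probes. Within wash batch 1 alone 2 were called, Sesn2 and Chac1, with Atf4 at 0.15 (adjusted p = 0.554), Ppp1r15a at 0.40 (adjusted p = 0.213) and Psat1 at -1.25 (adjusted p = 0.0604). Chac1 was not called within wash batch 2 (-1.555, adjusted p = 0.171), and was at -2.23 without CTRL fasted replicate 2. In AAKO livers 4 were called, where 60% of all genes were: Sesn2 (2.09 ± 0.12) and Trib3 (0.94 ± 0.32) were higher after fasting, and Ddit3 (-1.15 ± 0.17) and Atf5 (-0.91 ± 0.15) after CL316243. Trib3 was not called within wash batch 2 (0.74, adjusted p = 0.223).

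The genotype difference itself was unlike between fasting and CL316243 for 6 of the 10, where 31.8% of all genes were called. It was more positive when fasted for Chac1 (2.42 ± 0.71), Psat1 (1.81 ± 0.41) and Sesn2 (1.39 ± 0.17), and more negative for Atf5 (-1.23 ± 0.21), Ddit3 (-1.09 ± 0.24) and Atf4 (-0.40 ± 0.14). The call for Atf4 ended on its second probe (-0.33, adjusted p = 0.0719) and without any 1 of CTRL fasted replicate 2, AAKO fasted replicates 3 and 6, CTRL CL316243 replicates 2 and 3 and AAKO CL316243 replicates 1 and 5 (adjusted p up to 0.0641). Psat1 was at 1.15 as the mean over its probes, and Chac1 at 2.91 without CTRL fasted replicate 2. Within wash batch 1 alone 2 of these were called, Sesn2 and Atf5, and Chac1 was called in neither batch (2.075, adjusted p = 0.0552, and 3.01, adjusted p = 0.107).

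The order of the groups by mean level varied from gene to gene. AAKO fasted was the highest group for Chac1, Sesn2, Trib3, Asns and Ppp1r15a, AAKO CL316243 for Atf4, Ddit3 and Phgdh, CTRL fasted for Atf5 and CTRL CL316243 for Psat1. Neighbouring groups in that order overlapped except for Sesn2 on both sides of CTRL fasted, for Atf5 on both sides of AAKO CL316243, and for Trib3 between AAKO CL316243 and CTRL fed. Within groups the genes seldom moved together from array to array. Over 45 pairs of genes, the deviations of the 36 arrays from their group means had a median correlation of 0.02, and 2 pairs exceeded 0.5, Trib3 with Sesn2 (0.555) and Asns with Psat1 (0.537). The pair farthest from 0 was Atf5 with Ppp1r15a, at -0.591. Trib3 with Sesn2 stood at 0.941 within AAKO fasted and 0.918 within AAKO CL316243 livers, and from -0.245 to 0.314 within the other 4 groups. This describes arrays that share one scaling each.

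Over the same 36 arrays, the genes outside the group whose level followed a member most closely included Nudt16 (Pearson r = 0.967) for Sesn2, Arid5a (0.923) and Slc39a14 (0.911) for Chac1, and Mettl27 (0.914) and Fam160b1 (0.907) for Trib3. For Atf5 they were Pabpn1 (0.894) and Arsg (0.891), for Ddit3 C1qtnf12 (0.894) and Alg12 (0.85), for Ppp1r15a Gnl2 (0.877) and Snx17 (0.874), and for Atf4 Tpp2 (0.872) and Supt6 (0.862). Asns was nearest to Gyg (0.787) and Gldn (0.757), Psat1 to Egr1 (0.754) and Nr1d1 (0.751), and Phgdh to Fxyd5 (0.638). The arrays share their groups, so these values mix differences between groups with those within them.

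Beyond the 10 genes, 30 other ATF4 targets were followed, of which 29 were tested. In fasted livers 15 of the 29 were higher and 3 lower in AAKO, where 21.9% of all genes were higher and 27.3% lower, with a median of 0.64. Ddit4, an inhibitor of mTORC1 (4.42 ± 0.47), the stress factor Atf3 (3.17 ± 0.40) and Herpud1, which serves the disposal of misfolded proteins (2.42 ± 0.24), were highest. Their SDs were 1.72, 1.14 and 0.85 in CTRL fasted livers and 0.07, 0.83 and 0.04 in AAKO fasted livers. Fgf21 (-5.47 ± 0.59), the glycine transporter gene Slc6a9 (-1.91 ± 0.16) and Shmt2 of mitochondrial one-carbon metabolism (-0.62 ± 0.07) were lowest; the Fgf21 probe was well above background on 5 of 6 AAKO fasted arrays. After CL316243 9 were higher and 3 lower in AAKO, where 13% of all genes were higher and 11.6% lower, with a median of 0.31. Atf3 (1.59 ± 0.41), the amino acid transporter gene Slc38a2 (1.58 ± 0.24) and Ddit4 (1.40 ± 0.48) were highest, and Fgf21 (-4.59 ± 0.59) and Slc6a9 (-1.03 ± 0.16) lowest. With normexp background correction Atf3 gave 1.94 when fasted and 0.69 after CL316243, and Fgf21 gave -2.93 after CL316243; Shmt2 gave -0.33 when fasted as the mean over its probes.

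In fasted against fed CTRL livers 9 of these 29 targets were higher and 5 lower, where 19.7% of all genes were higher and 24.1% lower, with a median of 0.12. Fgf21 (4.09 ± 0.59) was highest and Herpud1 (-1.77 ± 0.24) lowest, followed by Psph of serine synthesis (-0.90 ± 0.15). Of the 26 of the 30 targets with a promoter window, 9 held TGATGNAA and 0 held TGACGTCA. In fed livers 0 of these targets, and 0 genes of the lists that follow, were called between the genotypes.

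Genes of the machinery around eIF2 and of the endoplasmic reticulum were called mostly higher in AAKO livers after CL316243. Of 18 genes for eIF2 kinases, eIF2, eIF2B and phosphatase partners, 12 were higher and 1 lower (median 0.30), 72.2% called against 24.6% of all genes. When fasted 4 were higher and 3 lower (median 0.06), 38.9% called and so below the 49.2% of all genes. Eif2ak3, which encodes the endoplasmic reticulum kinase PERK, was higher after CL316243 (0.82 ± 0.14), and Eif2ak4, which encodes the amino acid sensor GCN2, when fasted (0.58 ± 0.11). Another eIF2 kinase gene, Eif2ak2, was lower in AAKO when fasted (-0.57 ± 0.12). Of 17 ATF6 and XBP1 endoplasmic reticulum genes, 15 were higher and 0 lower in AAKO after CL316243 (median 0.92), or 88.2% called. When fasted 2 were higher and 6 lower (median -0.18), 47.1% called and so near the share of all genes. Creld2 (1.85 ± 0.24), Manf (1.77 ± 0.22) and Sdf2l1 (1.62 ± 0.31), which encode proteins of the secretory pathway, were highest after CL316243. Between CL316243 and fed mice, from separate experiments, 12 of the 17 were lower and 0 higher in CTRL livers (median -0.64). That was 70.6% called against 23.1% of all genes. In AAKO livers 4 were higher and 0 lower (median 0.22), 23.5% called and so below the 31.4% of all genes. In fasted against fed CTRL livers 16 of the 17 were lower and 0 higher (median -1.41), 94.1% called against 43.8% of all genes, and of the 18 genes around eIF2 2 were higher and 7 lower (median -0.07, and 0.06 after quantile normalization), or 50% called.

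Among 20 cytosolic aminoacyl-tRNA synthetase genes, which charge tRNAs, 12 were higher and 0 lower in AAKO after CL316243 (median 0.31), 60% called against 24.6% of all genes, with Wars (1.00 ± 0.11), Qars (0.58 ± 0.06) and Eprs (0.58 ± 0.08) highest. When fasted 4 were higher and 6 lower (median 0.12), 50% called and so near the 49.2% of all genes, with Eprs at 0.95 ± 0.08 and Dars at -1.01 ± 0.20. In fasted against fed CTRL livers 3 were higher and 10 lower (median -0.16), 65% called against 43.8% of all genes. Of 8 mitochondrial unfolded protein response genes 2 were higher and 0 lower after CL316243 (median 0.10), 25% called and so near the share of all genes. When fasted 2 were higher and 3 lower (median -0.04, and 0.01 on the authors' deposited table), among them the protease subunit gene Clpx (-0.92 ± 0.17), with 62.5% called. In fasted against fed CTRL livers 3 were higher and 3 lower (median -0.11, and 0.04 on the authors' deposited table), with 75% called. Of all calls between the genotypes after CL316243, 42.3% were higher in AAKO on that differently scaled table and 52.8% here. Of those between fasted and fed CTRL livers, 56.1% were higher on it and 45% here.

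**Figure D5:**
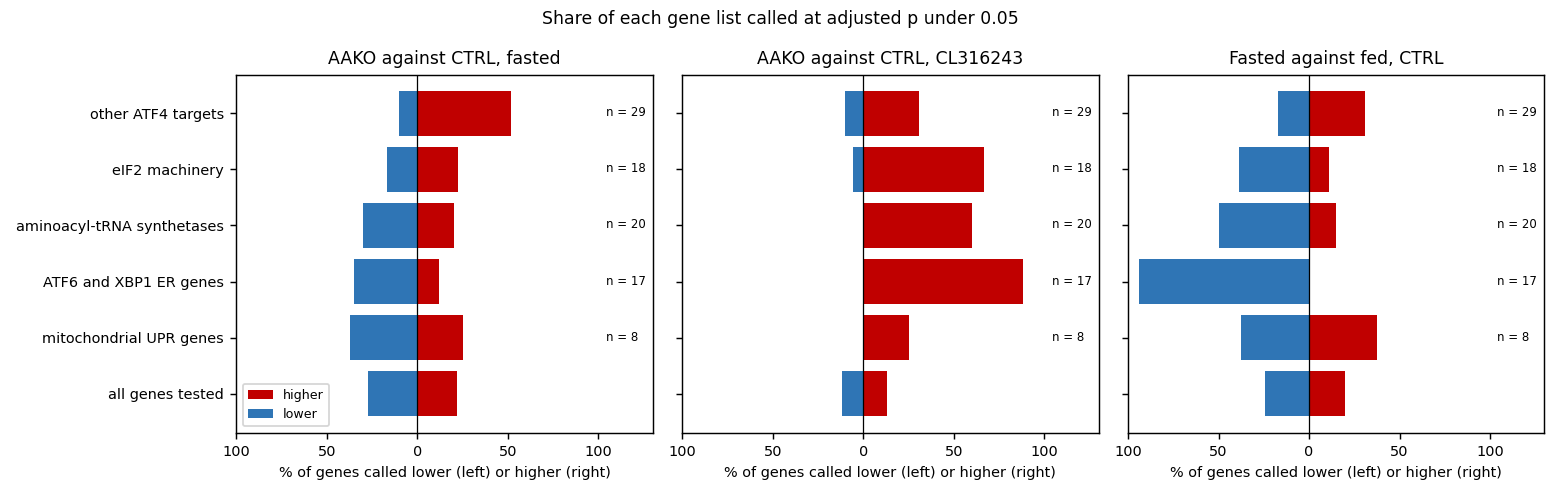
The share of each list's tested genes called lower (left, blue) or higher (right, red) at an adjusted p under 0.05, in percent, for 3 contrasts, with the shares of all 24097 genes in the lowest row. In the CL316243 panel the bars of the ATF6 and XBP1 genes, the eIF2 genes and the synthetases lie almost wholly to the right, where all genes stand at 13% higher and 11.6% lower.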

How the data were processed

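Scanner files of 36 arrays were deposited, with spot intensity from Agilent Feature Extraction 10.10.1.1, already background-subtracted per the file headers. The authors also deposited one table of log2 values, covering 36898 probes. Its columns followed the log2 scanner signal of the same array (r at least 0.986), those of a group held the same sorted values, and their medians were 6.91 (CTRL fed), 6.92 (AAKO fed), 6.97 (CTRL fasted), 7.01 (AAKO fasted), 6.91 (CTRL CL316243) and 6.88 (AAKO CL316243). Scale and direction follow from this, no gene centring was seen, and the probe filter stays unknown. The submitters' processing notes name limma.

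Here the log2 processed signal, without outlier-marked spots, was averaged per probe and set against the array's 75th percentile. Probes were named by RefSeq accession (GRCm38.p6) for 32994 of 56605, and otherwise keep the file's name; the files do not say in which exon or UTR a probe lies. Each gene took its probe with the highest mean. limma 3.58.1 (R 4.3.3) fitted 6 group means and the wash batch over 36 arrays, with eBayes and Benjamini-Hochberg adjustment over 24097 genes, two-sided; the fit was tested on simulated data. AAKO CL316243 has 4 and 2 arrays in the wash batches and every other group 3 and 3, so fitted differences can depart slightly from those of group means. Values after ± are standard errors of that fit. The number of arrays limits the precision. The labels do not say whether the mice of a group shared a cage or litter, so p-values measure the spread between these samples.

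The 10 genes and the lists were chosen with earlier results of these data known. Named list genes come from the up to 3 highest and 3 lowest called genes of a list in 3 contrasts; like genes are the 2 with the highest Pearson r, of which those of Sesn2 and Phgdh are named only in part; the others are not reported here. Alternatives were normexp background correction (offset 50), quantile normalization, the deposited table, no filter, the mean over probes, no wash batch, slide as a factor, the contrast's groups alone, each wash batch, a replicate block, leaving out each array and, chosen after seeing the data, another probe of a gene. The mean over probes takes in probes that failed the filter.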

Additional observations from a re-analysis of the deposited data

Results flagged for a closer look

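Within groups of 6 arrays, 5 of 60 gene and group combinations had an array farther from the others than Dixon's test allows, where chance gives about 1 in 20. Chac1 in CTRL fasted replicate 2 was at 3.04, with the next array at 0.79. Atf5 in AAKO fasted replicate 3 was at 7.75, with the next at 7.07. Ddit3 in CTRL fasted replicate 1 was at 0.038, with the next at -0.43. Psat1 in AAKO CL316243 replicate 1 was at -0.12, with the next at -0.99. Asns in CTRL CL316243 replicate 3 was the lowest of its group at 3.99, with the next at 4.42.

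The genotypes differed in their difference from fed livers, by limma's interaction terms, for Chac1 (3.62), Sesn2 (1.13) and Atf5 (-1.79) with fasting and for Ddit3 (1.13), Ppp1r15a (0.84) and Atf4 (0.73) with CL316243. The genotype difference was unlike between fasting and CL316243 for Chac1 (2.42), Psat1 (1.81), Sesn2 (1.39), Atf4 (-0.40), Ddit3 (-1.09) and Atf5 (-1.23). These are log2 values.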

How the results depend on the processing

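Over the 10 genes in 12 contrasts, 12 other settings gave 1440 values: 1310 kept direction and side of the threshold, 63 lost a call, 25 gained one and 42 changed sign, of which 1 was called over all arrays (Psat1, CL316243 against fed in AAKO, other probe). Leaving out 1 array gave 1800 values: 1713 kept both, 41 lost a call, 16 gained one and 30 changed sign, of which 0 were called over all arrays. The causes were not tested. A wash batch alone holds 2 to 4 arrays of a group, and the share of all genes called within it is not given.

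The counts of genes called moved by more than 1.5 times as follows. Within wash batch 1 they were 4 (genotype, fasted), 3 (genotype, CL316243), 5 (fasted against fed, AAKO), 3 (CL316243 against fed, CTRL), 2 (fasted against CL316243, CTRL), 0 (interaction with CL316243) and 2 (interaction of fasting against CL316243). Within wash batch 2 they were 2 (genotype, CL316243), 3 (CL316243 against fed, CTRL), 2 (CL316243 against fed, AAKO) and 1 (interaction with CL316243). Without a filter on dim probes the genotype count after CL316243 was 3. Leaving out 1 array, it was 3 to 4, and that of the interaction with fasting 3 to 5.

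Signs changed within wash batch 1 for Chac1 (-0.89), Ddit3 (0.013) and Trib3 (0.26) between genotypes when fed, Ddit3 (0.074) and Phgdh (-0.17) between genotypes when fasted, Chac1 (-0.24) and Phgdh (0.037) in fasted against fed CTRL, Atf5 (0.19) in fasted against fed AAKO, Sesn2 (0.008) in CL316243 against fed AAKO, Asns (-0.27), Phgdh (0.033) and Trib3 (-0.16) in fasted against CL316243 CTRL, Ppp1r15a (-0.18) in the same in AAKO, and Phgdh in the interactions with fasting (-0.37), with CL316243 (0.19) and of fasting against CL316243 (-0.56). Within wash batch 2 they changed for Atf4 (-0.021) and Psat1 (-0.18) between genotypes when fed, Phgdh (-0.32) between genotypes after CL316243, Phgdh (0.19) in fasted and (-0.074) in CL316243 against fed AAKO, Ddit3 (0.20) in fasted against CL316243 CTRL, Atf4 (0.067) and Phgdh (0.27) in the same in AAKO, and Chac1 (-0.25) and Trib3 (0.54) in the interaction with CL316243.

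Quantile normalization turned Psat1 between genotypes when fed (-0.014), Atf5 in fasted against fed AAKO (0.056) and Atf4 in fasted against CL316243 AAKO (0.031). The authors' deposited table turned Atf5 (0.05) and Phgdh (0.002) in fasted against fed AAKO and Atf4 (0.038) in fasted against CL316243 AAKO. The other probe turned Ddit3 (-0.23) and Psat1 (-0.32) in CL316243 against fed AAKO and Atf4 (0.039) in fasted against CL316243 AAKO. Normexp turned Phgdh in the interactions with fasting (-0.022), with CL316243 (0.02) and of fasting against CL316243 (-0.042). Without the wash batch Sesn2 was 0.011 in CL316243 against fed AAKO. With slide as a factor it was 0.044, Psat1 between genotypes when fed was -0.005, and Phgdh in the interaction with CL316243 was 0.091.

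Leaving out 1 array, ranges crossed 0 between genotypes for Chac1 (-0.11 to 0.48) and Psat1 (-0.13 to 0.12) when fed and Phgdh (-0.017 to 0.18) after CL316243, for Chac1 (-0.15 to 0.59) in fasted against fed CTRL, Sesn2 (-0.065 to 0.034) in CL316243 against fed AAKO, Asns (-0.29 to 0.28) and Ddit3 (-0.16 to 0.001) in fasted against CL316243 CTRL, Ppp1r15a (-0.011 to 0.16) in the same in AAKO, Ddit3 (-0.067 to 0.14) and Phgdh (-0.009 to 0.15) in the interaction with fasting, and Trib3 (-0.41 to 0.032) in the interaction with CL316243.

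Replicate numbers did not pair the samples: over 90 pairs of arrays with the same number in different groups the median correlation of deviations was 0.002, 16 exceeded 0.1, and 6 of 36 arrays were closest to one of their own number. A fit with the replicate number as a block changed 0 of the 120 results. The number of arrays and signal near background for dim probes limit what can be seen.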
